A study of Arabidopsis thaliana with 18 samples.

Results

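The genes described here are 113 transcripts of Arabidopsis thaliana seedlings whose mean level was lower with the endoplasmic reticulum (ER) stressor tunicamycin (TM) in wild type (WT) and was not lower in the library group labelled ire1a/ire1b (written ire1a1b here). They were chosen by measured values among 27416 genes. A gene was a member when its change, log2((mean TM + 1)/(mean DMSO + 1)) of the mean CPM of 3 libraries, was -0.6 or lower in WT and above -0.1 in ire1a1b, with a mean of at least 5 CPM in DMSO in both genotypes. That minimum was met by 15600 genes. CPM is a gene's read count scaled to the same total of gene counts in every library. The rule therefore used the 12 WT and ire1a1b libraries and left the 6 libraries labelled ire1b unused.

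The series compared whole seedlings of WT, ire1b and ire1a1b, all 7 days old and moved from plates to liquid medium for 6 h with either DMSO, the solvent control, or 5 µg/mL TM. Each of the 6 groups held 3 libraries of polyA RNA. The labels named no allele, no line of origin and no separate cultures. The p-values thus cover only how far these samples spread, and that spread may be technical. Whole seedlings hold root and shoot together, and in such bulk samples fewer cells of a type and less RNA per cell cannot be told apart.

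TM blocks N-linked glycosylation, and unglycosylated proteins that misfold in the ER set off the unfolded protein response. IRE1 is an ER membrane protein with a sensor region in the lumen and a kinase and ribonuclease on the cytosolic side. Its ribonuclease splices the mRNA of the transcription factor bZIP60, and in a process called regulated IRE1-dependent decay (RIDD) it also cuts mRNAs at the ER membrane, many of which encode secreted proteins. A secreted protein carries a signal peptide, a hydrophobic stretch near its start that brings the translating ribosome to the ER. Arabidopsis has the genes IRE1A and IRE1B.

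The first 90 coding bases of 11 members are printed because a hydrophobic protein start, a feature that the rule did not use, was present in 72.6% of members and in 16.3% of the genes meeting the CPM minimum. Bases come from the RefSeq TAIR10.1 genome and annotation, 5′ to 3′ in coding direction, and capitals mark the 11 consecutive codons of highest mean hydropathy within the first 30. BGLU33, SCPL49, PRXCA, XTH18 and AT1G03220 are among the members with the lowest WT change. AT1G03230 and XTH19 are the neighbours of a gene in that set, AT4G36430 and CYP83B1 carry results in ire1b, and YLS9 and AT5G53990 are shown as members without a hydrophobic start.
BGLU33, chr2:13940233-13940322, plus strand: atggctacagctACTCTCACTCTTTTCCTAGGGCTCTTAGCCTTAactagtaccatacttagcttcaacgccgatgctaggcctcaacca
SCPL49, chr3:3237974-3238063, minus strand: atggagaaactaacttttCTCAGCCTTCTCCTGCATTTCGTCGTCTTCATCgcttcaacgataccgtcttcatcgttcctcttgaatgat
PRXCA, chr3:18200713-18200802, plus strand: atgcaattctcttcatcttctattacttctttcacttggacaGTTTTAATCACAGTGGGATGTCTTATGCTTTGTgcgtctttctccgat
XTH18, chr4:14826909-14826998, minus strand: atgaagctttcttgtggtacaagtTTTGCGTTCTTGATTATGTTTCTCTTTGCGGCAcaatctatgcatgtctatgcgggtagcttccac
XTH19, chr4:14829876-14829965, minus strand: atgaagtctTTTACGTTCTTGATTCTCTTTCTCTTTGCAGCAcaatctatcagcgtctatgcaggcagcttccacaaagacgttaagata
AT1G03220, chr1:787143-787232, plus strand: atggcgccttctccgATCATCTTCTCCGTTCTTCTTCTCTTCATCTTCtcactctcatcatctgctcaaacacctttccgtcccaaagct
AT1G03230, chr1:790110-790199, plus strand: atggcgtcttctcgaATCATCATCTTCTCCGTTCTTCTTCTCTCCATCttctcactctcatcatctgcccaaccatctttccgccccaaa
CYP83B1, chr4:15275182-15275271, minus strand: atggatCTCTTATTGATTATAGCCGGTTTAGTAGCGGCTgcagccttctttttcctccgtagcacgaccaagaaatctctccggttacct
AT4G36430, chr4:17205828-17205917, minus strand: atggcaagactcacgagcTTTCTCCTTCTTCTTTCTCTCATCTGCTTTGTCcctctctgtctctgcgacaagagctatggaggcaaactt
YLS9, chr2:15110635-15110724, plus strand: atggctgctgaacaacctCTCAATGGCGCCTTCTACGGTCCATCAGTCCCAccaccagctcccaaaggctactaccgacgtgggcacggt
AT5G53990, chr5:21916961-21917050, minus strand: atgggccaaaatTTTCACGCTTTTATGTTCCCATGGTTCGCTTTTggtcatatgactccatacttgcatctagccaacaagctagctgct

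In the secreted enzymes the capitals fall within the first 25 codons and are rich in codons for leucine, isoleucine, valine and phenylalanine. Mean hydropathy (Kyte-Doolittle scale) of the marked stretch was 2.33 in BGLU33, 2.70 in SCPL49, 3.34 in AT1G03220 and 3.04 in the membrane-anchored cytochrome P450 CYP83B1. It was 0.27 in YLS9 and 1.25 in AT5G53990.

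Library totals ranged from 16.35 to 24.85 M gene counts. On the second principal component of log2 CPM over the 20615 tested genes, replicate 1 of WT and ire1a1b (4 libraries, 31.0 to 47.5) lay apart from their replicates 2 and 3 (-19.2 to 3.5) and from ire1b (-27.1 to -1.5). Without these 4 libraries the rule found 168 genes, of which 91 were among the 113. IRE1A stood at 19.8 to 24.3 CPM in the 6 libraries labelled ire1a1b, against 78.6 to 95.3 in WT. IRE1B was not lower in the libraries labelled as mutants for it (34.4 to 46.1 CPM in ire1b and 36.4 to 46.8 in ire1a1b, against 29.7 to 37.1 in WT), so gene counts do not show that part of the labels. Every direction below is drawn between libraries so labelled.

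The ER stress response was read from 19 listed genes, none of which is a member. They include IRE1A, IRE1B, BZIP60 and NAC103, but also BZIP28, BZIP17, S1P, S2P and ER chaperone genes, so not all are particular to IRE1. With TM, 15 of them rose in WT (6.13% of all tested genes rose), 14 in ire1b (10.9%) and 12 in ire1a1b (8.27%), and none was called lower. NAC103, a transcription factor gene activated by spliced bZIP60, rose by log2 6.08 in WT and 6.32 in ire1b. In ire1a1b its log2 change was 0.35 (edgeR adjusted p = 0.25). BIP3, an ER chaperone gene, rose by log2 10.09, 7.94 and 6.31 in the same order. BZIP60 rose by log2 1.38 in WT and 1.66 in ire1b and had a change of 0.76 in ire1a1b (edgeR adjusted p = 0.085).

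All 113 members were protein-coding and passed the filter on low counts. The values that chose them are given as a description. The WT change had a median of -0.78 and reached -1.42, and the ire1a1b change had a median of 0.06 and reached 2.12. Over all genes that met the CPM minimum the medians were -0.02 and -0.08. Of the members, 70 were called lower in WT (61.9%, background 5.77%) and 57 had a response called higher in ire1a1b than in WT (50.4%, background 3.7%), and 52 had both calls. In ire1a1b 15 members were called higher (13.3%, background 8.27%) and none lower. A replicate block raised the WT count to 93, that of the difference to 89 and that of ire1a1b to 24. These contrasts are the ones the rule used, and nothing is read from their counts.

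In DMSO the median log2 difference of the members from WT was 0.10 in ire1b and 0.03 in ire1a1b. Their mean CPM in WT DMSO ranged from 5.11 to 2263, with a median of 43.8, and 29 members were above 100 CPM. CPM is not corrected for gene length, so these levels are not compared between genes.

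Pair by pair, the WT medians over the 113 members were -0.55 in replicate 1, -0.84 in replicate 2 and -0.94 in replicate 3, and 109 members were lower with TM in all 3 WT pairs. The ire1a1b medians were 0.11, 0.10 and 0.08, with 35, 35 and 43 members below 0. The ire1b medians were -0.21, -0.23 and -0.38, with 87, 95 and 97 members below 0, in pairs where 62.8%, 62.2% and 52.8% of the genes meeting the CPM minimum were below 0. In every ire1b pair the member median lay below that of the genes meeting the CPM minimum, which stood at -0.07, -0.06 and -0.02.

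**Figure D1:**
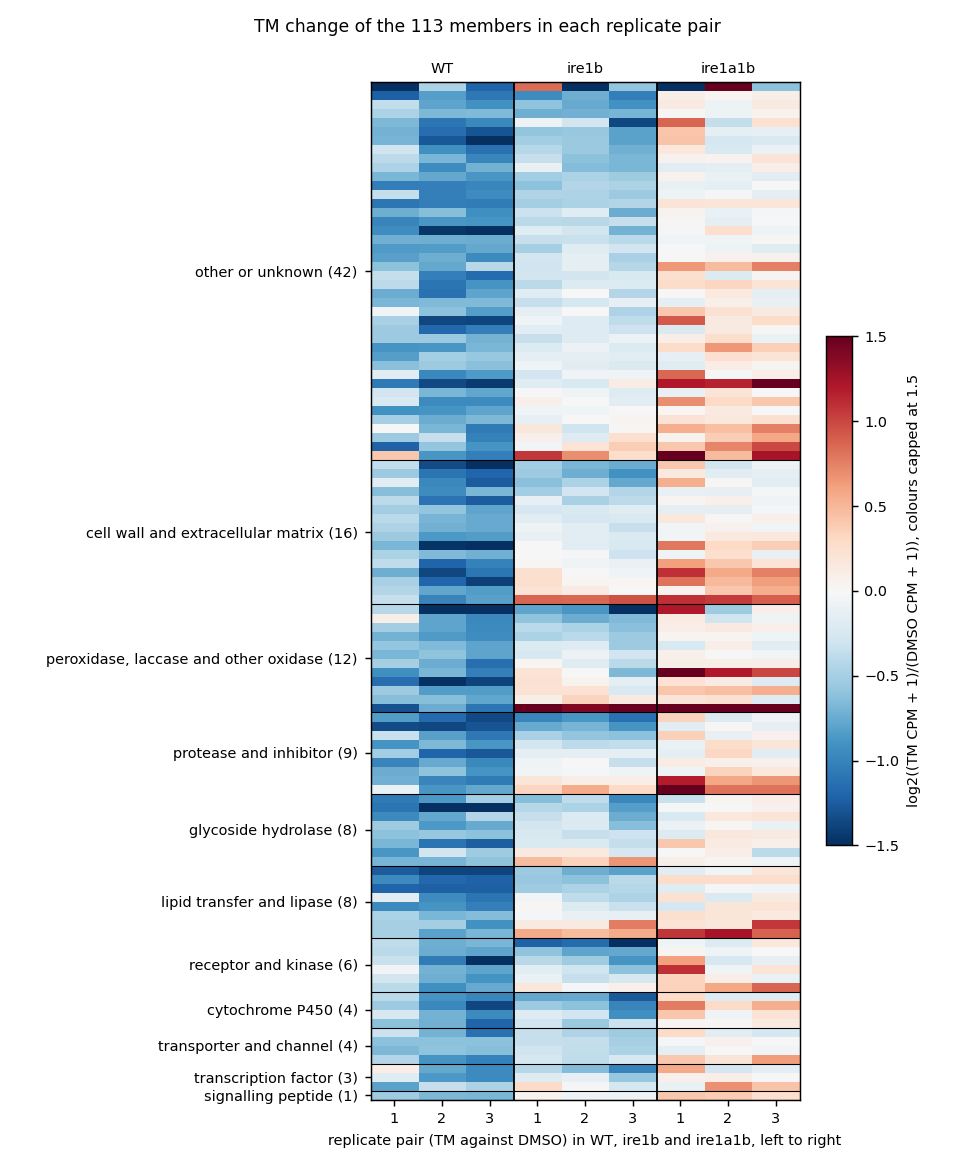
TM change of each of the 113 members (rows, grouped by annotation) in the 9 replicate pairs (columns), as log2((TM CPM + 1)/(DMSO CPM + 1)), blue for lower and red for higher with TM. The WT columns are blue and the ire1a1b columns pale or red because the rule chose the rows by those libraries. The rule did not use the ire1b columns. By group means, the ire1b change lay between those of WT and ire1a1b for 101 members. The WT and ire1a1b values of that count chose the genes, so nothing is read from it.

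The comparison open to a test was TM against DMSO in the 6 libraries labelled ire1b. There 23 members fell (20.4%, against 11.6% of all tested genes) and 3 rose (2.65%, against 10.9%), while 87 did not pass (edgeR quasi-likelihood, Benjamini-Hochberg adjusted p below 0.05). The median log2 change of the members was -0.24 (quartiles -0.45 and -0.04), beside -0.01 for all tested genes (quartiles -0.24 and 0.15). Of the members, 87 had a negative (77%, against 47.2% of the genes meeting the CPM minimum) and 26 a positive log2 change. In 60 members every TM library lay below every DMSO library (53.1%, against 29.2% of all tested genes), and in 5 every TM library lay above. The share of all tested genes with every TM library above was not counted. All 3 pairs were lower in 82 members, beside 42% of the genes meeting the CPM minimum. A replicate block raised the count of members that fell from 23 to 35, and a block within each genotype raised it to 45. The count was 14 without the third ire1b DMSO library and 15 without the first ire1b TM library.

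On the scale of the rule, the ire1b change of the members had a median of -0.29 and ran from -1.59 to 1.69. It lay between the WT and ire1a1b changes in 101 members, at or below the WT change in 8 and at or above the ire1a1b change in 4. In 22 members it would have met the WT threshold, and in 29 it was above the ire1a1b threshold. The shares of all genes on these sides of the thresholds in ire1b were not counted. The WT and ire1a1b values of these counts are the ones that chose the genes. Among the 91 members that the rule also found without the replicate 1 libraries, 17 fell in ire1b.

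**Figure D2:**
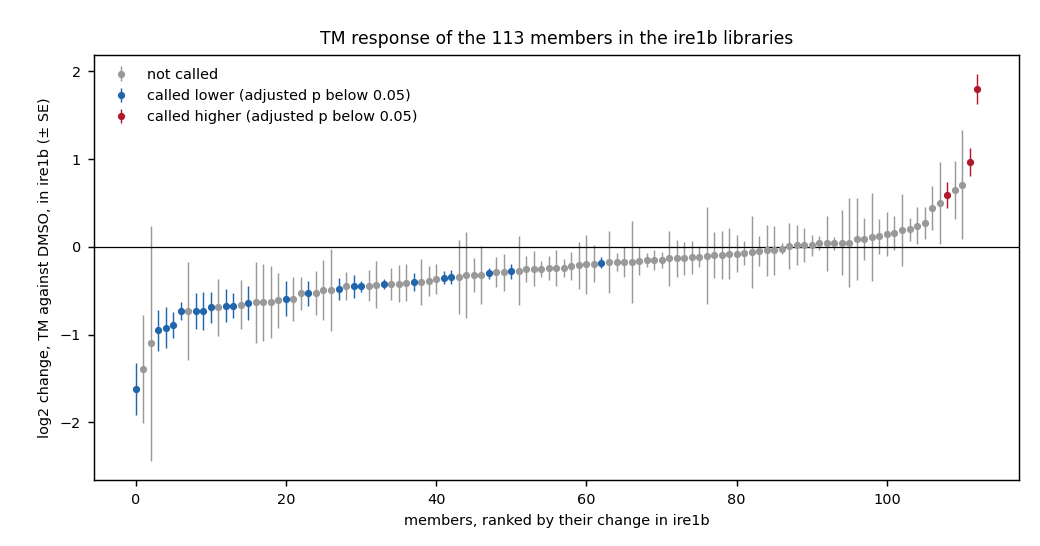
Log2 change with TM in the libraries labelled ire1b (y axis, fitted value ± SE, 3 libraries per treatment) for the 113 members ranked by that change (x axis), coloured by the edgeR call. The 23 blue points that fell spread from -1.62 to -0.18, the 3 red points that rose stand at 0.59, 0.97 and 1.80, and most grey points lie below 0.

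Proteases were among the members with the lowest WT change. SCPL49 (AT3G10410, chromosome 3, 3235290 to 3238267, TAIR10.1) encodes a serine carboxypeptidase-like protein. Its 3 DMSO libraries of WT stood at 74.7, 61.6 and 67.4 CPM and the TM libraries at 29, 23.3 and 26.9. In ire1a1b the values were 79.6, 59.8 and 66.3 CPM in DMSO and 70.9, 60.6 and 60.9 with TM. The WT groups were far apart and the ire1a1b groups overlapped. In ire1b SCPL49 went from 64.2, 67.4 and 64.3 CPM to 37.4, 41.2 and 34.5, with no overlap. It fell by 0.73 ± 0.10 (SE) on the log2 scale there (edgeR adjusted p = 3.8e-05).

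AT1G03220 and AT1G03230 are adjacent genes for aspartyl protease family proteins on chromosome 1 (786832 to 791689), and their coding sequences were 91.7% identical. Such similar genes may share reads, and how the authors counted those was not given in the sources used here. AT1G03220 stood at 340, 493 and 587 CPM in WT DMSO and at 190.2, 219 and 229.7 with TM. The corresponding ire1a1b values were 282, 474 and 480.1 CPM, then 354, 409 and 462. With TM, libraries labelled ire1b went from 481, 459 and 636 CPM to 242, 250.3 and 292, so this gene fell by 0.95 ± 0.23 (edgeR adjusted p = 0.0079). Its neighbour behaved differently in that genotype. AT1G03230 stood at 64.3, 68 and 64.8 CPM in ire1b DMSO and at 73, 73.1 and 69.7 with TM, a log2 change of 0.20 ± 0.13 that did not pass (edgeR adjusted p = 0.36). In WT it had 56.1, 79.4 and 69.1 CPM in DMSO and 33.8, 39.4 and 32.5 with TM. In ire1a1b it had 61.5, 71.3 and 65.7 CPM, then 140.1, 107 and 105. The difference between the neighbours in ire1b was not tested.

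Of the 9 members grouped as proteases and inhibitors, 2 fell in ire1b, none rose and 7 did not pass, with fitted log2 changes from -0.95 to 0.50. For this and every group below, 11.6% of all tested genes fell in ire1b and 10.9% rose. No group count was tested against these shares, and the groups are small. The other members of the group include RD19, a papain-type protease of the vacuole, CEP2 and the gamma-glutamyl transpeptidase GGT1. GGT1 did not pass (edgeR adjusted p = 0.17) but did with a replicate block (0.039). The product name of GAMMA-VPE (AT4G32940), a vacuolar processing enzyme that matures vacuolar proteins, placed it outside the group. Its levels were tight within groups, at 90.2, 85.6 and 93 CPM in WT DMSO and 42.1, 41.2 and 44.5 with TM. In ire1a1b they were 90.8, 94.7 and 91.8 CPM, then 104, 107 and 104. Libraries labelled ire1b stood between, going from 94, 94.5 and 97.1 CPM to 65.6, 67.9 and 71.3, and GAMMA-VPE fell by 0.42 ± 0.06 (edgeR adjusted p = 0.00013).

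Of the 10 members whose location note names the vacuole, 4 fell in ire1b (SCPL49, BCB, RNS2 and AT3G56310) and 6 did not pass, among them PRXCA and AT3G11780. RNS2 (AT2G39780, chromosome 2, 16591117 to 16593775) encodes a ribonuclease of the vacuole that turns over ribosomal RNA. Without TM it stood at 50.7, 51.5 and 49.3 CPM in WT, and with TM at 24.1, 24.9 and 24.5. The ire1b libraries went from 50.6, 46.7 and 48.5 CPM to 32.9, 34.1 and 34.8, and RNS2 fell by 0.45 ± 0.06 (edgeR adjusted p = 3e-05). The ire1a1b libraries held 55.8, 55.1 and 49.7 CPM in DMSO and 51.7, 50 and 49.2 with TM, which overlapped. VHA-A2 (AT2G21410), a subunit of the proton pump of the vacuolar membrane, fell in ire1b by 0.34 ± 0.08 (edgeR adjusted p = 0.0052). GAMMA-VPE, RNS2 and VHA-A2 were picked after their values were seen, and RD19 had a log2 change of 0.02 in ire1b (adjusted p = 0.95).

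The largest WT change of all members was that of BGLU33 (AT2G32860, chromosome 2, 13940187 to 13943883), which encodes a beta-glucosidase. WT libraries held 42.5, 36.7 and 41.2 CPM in DMSO and 19.5, 12 and 11.5 with TM. Libraries labelled ire1b went from 42.5, 42.1 and 50.2 CPM to 31.2, 30 and 27.9. Those labelled ire1a1b stood at 82.6, 77.6 and 76.6 CPM in DMSO and 80.9, 77.6 and 80.1 with TM. BGLU33 was thus higher in ire1a1b than in either other genotype before TM was given, and each ire1a1b library exceeded every other library. In ire1b it fell by 0.53 ± 0.14 (edgeR adjusted p = 0.010), a call lost without the third DMSO library (log2 -0.42, adjusted p = 0.060).

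Of the 8 members grouped as glycoside hydrolases, 2 fell in ire1b (BGLU33 and BGLU35), 1 rose (CTL2) and 5 did not pass. BGLU35 (AT1G51470), which went from 16.8, 17.1 and 20.1 CPM to 10.5, 13 and 9.75 in ire1b, fell by 0.64 ± 0.19 (edgeR adjusted p = 0.027). BGLU34 (AT1G47600), a close paralog that may share reads with it, had a log2 change of -0.39 ± 0.17 (edgeR adjusted p = 0.12, and 0.029 with a replicate block). Both are known as thioglucosidases (TGG5 and TGG4) of roots that split glucosinolates. CTL2 (AT3G16920), annotated as chitinase-like and known for a part in secondary cell walls, went the other way in ire1b. It had 14.9, 17.2 and 16.9 CPM in DMSO and 21.1, 22.1 and 27.3 with TM, and rose by 0.59 ± 0.15 (edgeR adjusted p = 0.0096). Without the third ire1b TM library the rise no longer passed (0.46, adjusted p = 0.057). In WT CTL2 went from 15.2, 17.1 and 18.2 CPM to 8.93, 10.1 and 11.7, and in ire1a1b from 13.1, 15.9 and 18.2 to 14.1, 16.4 and 17.3.

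Cell wall and extracellular matrix genes made up 16 of the 113 members (14.2%, beside 2.37% of the genes meeting the CPM minimum). In ire1b 2 fell, 1 rose and 13 did not pass, and the median log2 change of the 16 was -0.12. Xyloglucan endotransglucosylase/hydrolases cut and rejoin xyloglucan chains in growing walls, and 5 of the 16 belong to that family (XTH18, XTH19, XTH24, XTR6 and TCH4). XTH18 (AT4G30280, chromosome 4, 14825757 to 14827211) held 229, 529 and 485 CPM in WT DMSO and 142, 190 and 171 with TM. The first WT DMSO library was low for this gene, as was the first ire1a1b DMSO library. In ire1a1b the values were 275, 484 and 441 CPM, then 475, 595 and 570. The ire1b groups overlapped, at 421, 533 and 609.8 CPM and 417, 478 and 521, and the log2 change was -0.08 ± 0.29 (edgeR adjusted p = 0.89).

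XTH24 had the most counts of the members, at 2362, 2193 and 2234 in WT DMSO and 1772, 1349.9 and 1321 with TM. In ire1b it went from 2388, 2464 and 2745 CPM to 2122, 2073 and 2349 (log2 -0.15 ± 0.11, edgeR adjusted p = 0.38). TCH4 likewise did not pass there (-0.11 ± 0.12, adjusted p = 0.62). None of the 5 family members passed in ire1b. Of the genes of the group that fell, AT3G10720, a pectin methylesterase family gene, went from 129.6, 175 and 148 CPM to 88.9, 105 and 78.7 in ire1b. Its log2 change was -0.67 ± 0.19 (edgeR adjusted p = 0.021). The other, AT1G08160, changed by -0.40 ± 0.10 (adjusted p = 0.0073). Like YLS9, it is a late embryogenesis abundant hydroxyproline-rich family gene without a hydrophobic start. Both were placed in the group by that word of the product name alone.

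AGP18 (AT4G37450), an arabinogalactan protein of the cell surface, rose in ire1b. Libraries went from 86.2, 105 and 81.1 CPM to 159, 192 and 159, a rise of 0.97 ± 0.16 (edgeR adjusted p = 0.00040). The ire1a1b libraries showed similar levels, with 78.5, 99.2 and 84.9 CPM in DMSO and 169.9, 207 and 159 with TM. WT had 72.9, 106 and 84.1 CPM in DMSO and 57.3, 52.9 and 47.4 with TM, so its TM libraries lay below all others. The other arabinogalactan proteins among the members, AGP2, AGP5 and AGP7, and the fasciclin-like FLA9 did not pass in ire1b.

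Peroxidases, laccases and other oxidases numbered 12 (10.6% of members, beside 1.49%), of which 2 fell, 1 rose and 9 did not pass in ire1b. Class III peroxidases are secreted haem enzymes that cross-link or loosen wall polymers, and laccases are copper oxidases that polymerise lignin. The one that rose was the peroxidase gene AT4G36430 (chromosome 4, 17204385 to 17206033). It stood at 23.6, 21 and 20.3 CPM in ire1b DMSO and at 77.4, 56.5 and 82.2 with TM, a rise of 1.80 ± 0.17 (edgeR adjusted p = 1.5e-06). The ire1a1b libraries went from 25.7, 27.5 and 29.5 CPM to 104, 104 and 161. WT libraries held 22.2, 18.8 and 23.4 CPM in DMSO and 8.38, 10.9 and 10.5 with TM. With TM, WT was therefore lowest and ire1a1b highest, with no overlap between any of the 3 genotypes.

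PRXCA (AT3G49110), another class III peroxidase gene, had 42.5, 111 and 114 CPM in WT DMSO and 18.7, 39.1 and 43 with TM. The ire1b values were 100.4, 132 and 139.5 CPM, then 118, 137 and 125 (log2 0.09 ± 0.47, edgeR adjusted p = 0.93). In ire1a1b they were 40, 112 and 124 CPM, then 46.7, 121 and 109. Replicate 1 was low in 4 of 4 groups of WT and ire1a1b, so the spread within groups was wide. PER4 also varied widely within groups, with 17.6, 25 and 91.9 CPM in ire1b DMSO and 9.76, 13.2 and 26.8 with TM (log2 -1.39 ± 0.62, adjusted p = 0.13). The peroxidase gene AT4G11290 fell in ire1b by 0.45 ± 0.13 (edgeR adjusted p = 0.020) and the cupredoxin gene AT4G39830 by 0.73 ± 0.22 (adjusted p = 0.026). The call of AT4G39830 was lost in 4 of the 6 fits that left out 1 ire1b library (adjusted p up to 0.092).

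Members grouped by name as lipid transfer and lipid recognition proteins, in general small secreted carriers of lipids, numbered 8 (7.08%, beside 0.949%). AT3G22142 of this group encodes a protein of 1480 residues and so is not small. Of the 8, 1 fell in ire1b while 7 did not pass. That gene, AT1G62790, went from 64.9, 72.6 and 62.1 CPM to 43.4, 47.3 and 46.7 in ire1b (log2 -0.48 ± 0.13, edgeR adjusted p = 0.011), and did not pass without the second DMSO (0.054) or the first TM library (0.053). LTP5 (AT3G51600) had 564, 378 and 363 CPM in WT DMSO and 245, 161 and 155 with TM, with replicate 1 the highest in both. In ire1b it went from 415, 395 and 325 CPM to 288, 285 and 241, a log2 change of -0.41 ± 0.21 (edgeR adjusted p = 0.19, and 0.0036 with a replicate block). In ire1a1b LTP5 had 599.7, 388 and 371 CPM in DMSO and 529.5, 384 and 361 with TM. AT3G22142 showed the same pattern in ire1b, with -0.63 ± 0.44 (adjusted p = 0.37, and 0.037 with a replicate block). AT5G23840, an MD-2-related gene, had a positive change of 0.65 ± 0.33 in ire1b (adjusted p = 0.19, and 0.010 with a replicate block).

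Of the 4 cytochrome P450 members 1 fell in ire1b and 3 did not pass. CYP83B1 (AT4G31500, chromosome 4, 15273410 to 15275404) is an ER-anchored enzyme of indole glucosinolate synthesis. It had 478, 550 and 582 CPM in WT DMSO and 359, 296 and 295 with TM. In ire1b it went from 519, 509 and 702 CPM to 303, 300.3 and 293, and it fell by 0.89 ± 0.15 (edgeR adjusted p = 0.00043). The ire1a1b groups overlapped, at 414, 553 and 559 CPM and 502, 485 and 494. WT and ire1b thus ended at like levels with TM, below every ire1a1b library.

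CYP79B2, which acts in the step before CYP83B1, and MYB51, a transcription factor that activates indole glucosinolate genes, were members too. These were picked for their known role after the values were seen. CYP79B2 went from 134, 144 and 190.4 CPM to 117, 118 and 100.5 in ire1b (log2 -0.42 ± 0.21, edgeR adjusted p = 0.18). MYB51 went from 116, 119 and 169 CPM to 85.6, 75.3 and 83.9 (log2 -0.66 ± 0.28, adjusted p = 0.11). In both, every TM library of ire1b lay below every DMSO library although neither passed. In WT, MYB51 replicate 1 showed no lower level with TM, at 63.6 CPM in DMSO and 68.1 with TM. Replicates 2 and 3 went from 139.6 and 136 CPM to 81.4 and 69.6.

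Among 6 genes grouped as receptors and kinases 2 fell in ire1b and 4 did not pass. AT3G22800, AT2G34930 and AT5G41750 were placed in the group by leucine-rich repeat words of the product name alone. Their product names give no kinase or receptor. AT3G22800 (chromosome 3, 8062712 to 8064649), a leucine-rich repeat gene, had the lowest log2 change of the members in ire1b, at -1.62 ± 0.30 (edgeR adjusted p = 0.00095). It went from 21.3, 25.2 and 49.9 CPM to 8.63, 10.8 and 10.6 there, and the third DMSO library stood well above the other two. In WT it had 15.7, 21.3 and 24.8 CPM in DMSO and 11.8, 12.4 and 15.1 with TM. GLR1.1, a glutamate receptor-like channel gene, went from 26, 28.1 and 30 CPM to 16.8, 15.8 and 17.2 in ire1b and fell by 0.69 ± 0.18 (edgeR adjusted p = 0.012), while without the third DMSO library it did not pass (0.050).

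Genes grouped as other or unknown numbered 42, of which 10 fell in ire1b, none rose and 32 did not pass. AT5G53990, a UDP-glycosyltransferase gene, went from 15.4, 14.1 and 16.2 CPM to 7.58, 8.08 and 7.35 in ire1b (log2 -0.92 ± 0.23, edgeR adjusted p = 0.0086). In WT it went from 11.8, 11.3 and 16 CPM to 4.44, 5.96 and 7.09, and in ire1a1b from 9.56, 15.1 and 15.5 to 10.2, 15.4 and 16.6. HIPL2, annotated as a hipl2 precursor, went from 52.1, 52.6 and 47.7 CPM to 31.1, 31.5 and 28.9 in ire1b and fell by 0.67 ± 0.14 (adjusted p = 0.0026). AT1G14040, an EXS family gene, fell by 0.73 ± 0.20 (adjusted p = 0.016), a call lost in 3 of the 6 fits that left out 1 ire1b library (up to 0.090). BCB, a blue copper-binding protein gene, passed narrowly at -0.59 ± 0.20 (adjusted p = 0.044), and without the third ire1b DMSO library it stood at -0.32 (adjusted p = 0.27). The BCB call was also lost with a replicate block within each genotype (adjusted p = 0.071), with the ire1b libraries alone (0.10), and without the first (0.15) or the second TM library (0.13).

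Some members of the group were highly variable. CRA1, a cruciferin gene for seed storage protein, stood between 0.83 and 8 CPM in WT DMSO and between 0.0881 and 42.3 CPM in the 6 ire1a1b libraries. Its ire1b change was -1.10 ± 1.34 (edgeR adjusted p = 0.64). DIR5, a dirigent-like gene, stood out in ire1a1b, where it went from 14.3, 11.9 and 7.82 CPM to 34.1, 27.9 and 45.1. In WT it went from 9.74, 6 and 6.59 CPM to 4.14, 1.74 and 1.8. In ire1b the DIR5 groups overlapped (log2 -0.04 ± 0.29, adjusted p = 0.95). HMG1, which encodes the regulated enzyme of sterol precursor synthesis at the ER membrane, had 506, 536 and 544 CPM in ire1b DMSO and 484, 481 and 468 with TM (log2 -0.08 ± 0.21, adjusted p = 0.84). The members also hold 4 transporter genes (1 fell in ire1b, VHA-A2), 3 transcription factor genes and the signalling peptide gene RALFL22, of which none of the last 4 passed in ire1b.

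**Figure D3:**
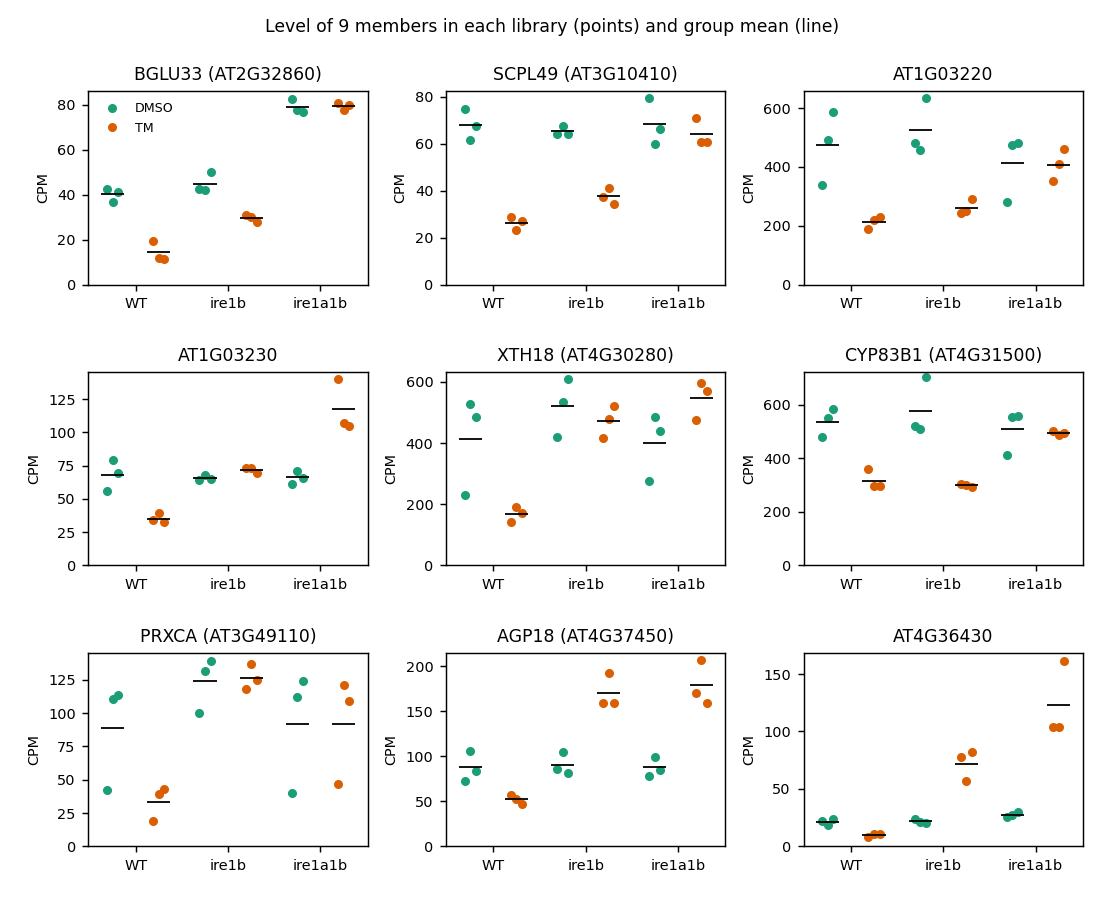
CPM of 9 members in each library (points, green for DMSO and orange for TM, replicates 1 to 3 from left to right) with the mean of 3 libraries (line), in WT, ire1b and ire1a1b. SCPL49 and BGLU33 with TM lie lowest in WT, intermediate in ire1b and highest in ire1a1b, while with TM AT1G03220 has means of 261 CPM in ire1b and 213 in WT and CYP83B1 has 299 and 317, and AGP18 and AT4G36430 stand above DMSO in both groups labelled as mutants.

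The rule used no protein or sequence feature. A hydrophobic start (a mean hydropathy of at least 2.0 over 11 residues within the first 30 of the longest annotated protein) was found in 82 of 113 members (72.6%), beside 2536 of 15540 genes meeting the CPM minimum (16.3%). Taking the isoform numbered 1 instead, which was chosen after the values were seen because the longest forms of AGP18 and CTL2 begin upstream of it, the shares were 74.3% and 16.2%. The feature was also common among genes that met the WT threshold and were lower in ire1a1b as well (356 of 584, 61%). It was less common among the 73 genes with a change of -0.6 or lower in ire1a1b and above -0.1 in WT (23.3%). The feature marks a likely signal peptide or an early membrane anchor and does not tell them apart.

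Within the members, the 82 with a hydrophobic start had a median log2 change of -0.19 in ire1b and 19 of them fell. The 31 without one had a median of -0.40 and 4 of them fell. All 9 proteases and all 8 lipid transfer and lipid recognition genes had the feature, as did 11 of 12 oxidases, 13 of 16 cell wall genes and 7 of 8 glycoside hydrolases. None of the 3 transcription factor genes had it. These shares were not tested.

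Annotated locations were read from the 86 members that have a location note. Entries that name no compartment count as notes here, in the members and in the background alike. Among the members these include an unknown component (AT3G22142 and AT5G44990) and a bare number of components (VHA-A2 and ENODL2). Such entries lower the shares by an amount that was not counted. The cell wall was named for 24 of them (27.9%, beside 3.56% of 9940 genes with a note), the endomembrane system for 30 (34.9% beside 13.6%), the vacuole for 10 (11.6% beside 3.94%) and the extracellular region or apoplast for 8 (9.30% beside 1.92%). The plasma membrane was named for 16 (18.6% beside 15.5%) and the chloroplast for 4 (4.65% beside 21.2%). No member note named the nucleus (9.02% of all) or the cytosol (5.15%), but the notes of VHA-A2 and ENODL2 do not list their components. Several of these shares were alike in the 454 noted genes that met the WT threshold and were lower in ire1a1b as well. There the endomembrane system was named for 44.3%, the extracellular region or apoplast for 11% and the vacuole for 9.69%. The cell wall was named for 17.4%, the plasma membrane for 12.3%, the chloroplast for 6.39%, the nucleus for 3.3% and the cytosol for 1.54%. Such notes may rest on predictions from the protein start, so they may not be independent of the hydropathy.

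**Figure D4:**
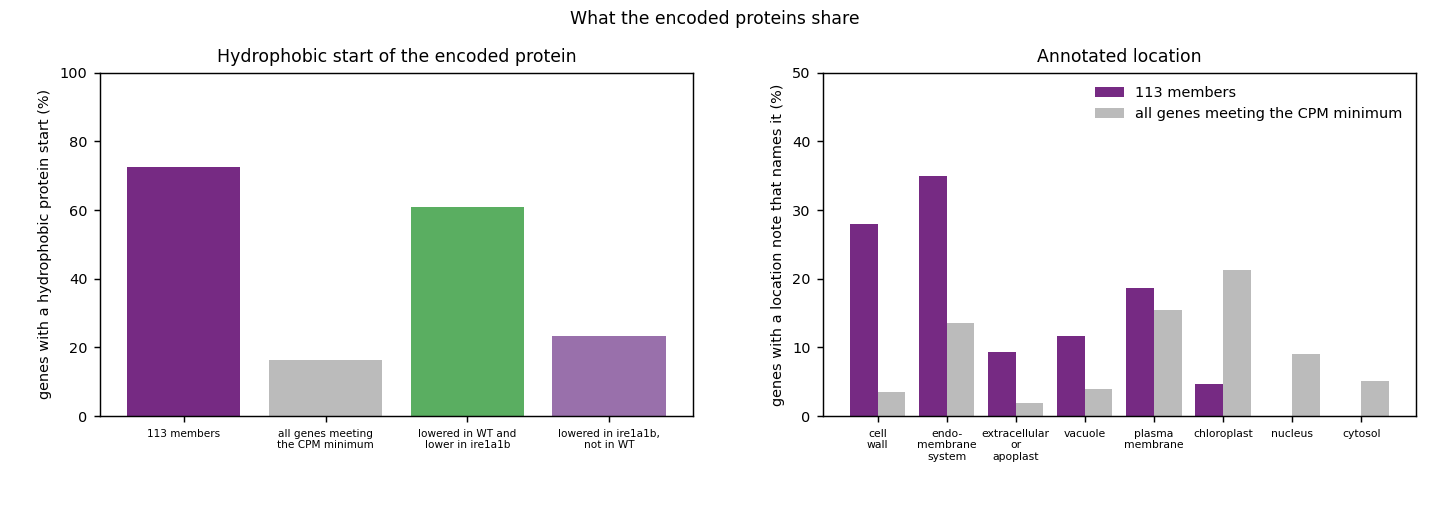
Left, percent of genes with a hydrophobic protein start among the 113 members (72.6%) and all genes meeting the CPM minimum (16.3%). Also on the left are genes lowered in WT and lower in ire1a1b (61%), and genes lowered in ire1a1b with a WT change above -0.1 (23.3%). Right, percent of genes with a location note whose note names each compartment, for members (purple) and all genes meeting the CPM minimum (grey): the cell wall and endomembrane system stand higher in the members and the chloroplast, nucleus and cytosol lower. Genes lowered in WT and lower in ire1a1b are not drawn on the right.

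Some other features were closer to the background. The median encoded protein had 361 residues, beside 406 over the genes meeting the CPM minimum, and the coding sequence lay in a median of 3 parts, beside 5. Genes lowered in WT and lower in ire1a1b had medians of 359 residues and 3 parts. A sequon for N-glycosylation (N-x-S/T, x not P), the site whose use TM blocks, was present in 78.8% of member proteins and 81.3% of all. GC content of the coding sequence had a median of 45.8%, beside 44.5%. The letters CTGCAG, known from animal mRNAs that IRE1 cuts, were counted in the coding sequence, a search added after the data were seen. They occurred 0.206 times per kb in members and 0.355 times per kb in the genes meeting the CPM minimum. In genes lowered in WT and lower in ire1a1b the letters occurred 0.221 times per kb. Absence of these letters says nothing of other cleavage sites.

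In the 250 bases before each annotated gene start, searched on both strands, the W-box letters TTGACC or TTGACT, bound by WRKY transcription factors, were present in 40 members (35.4%, beside 28.7% of 15569 genes). CACGTG was present in 2 members (1.77% beside 7.24%). Among genes lowered in WT and lower in ire1a1b the shares were 38.7% for the W-box letters and 4.79% for CACGTG. Letters of the ER stress response elements were rare: CCAAT followed after 10 bases by CACG stood in 1 member (0.885% beside 0.912%), and TGACGTGG (1.63% of all) and TGACGTCA (0.482%) in none. The last holds the letters TGACGT shared with TGACGTGG.

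Members lay on all 5 chromosomes, with 32, 12, 25, 20 and 24 on chromosomes 1 to 5. Some related members, 9 genes in 6 pairs, lie next to each other or 1 gene apart. Besides the protease neighbours these are BGLU15 and BGLU28 (63.8% identical in coding sequence), AT3G22600 and AT3G22620 (65.8%), and the run of XTH24, XTH18 and XTH19, in which XTH18 and XTH19 are 89.2% identical. XTH19 had 40, 61.8 and 63.9 CPM in WT DMSO and 30.2, 28 and 26.4 with TM. In ire1b it went from 53.4, 71.4 and 67.2 CPM to 49.2, 50.4 and 51 (log2 -0.29 ± 0.21, edgeR adjusted p = 0.39). Similar neighbours outside the set include CYP71B19 (96.2% identical to the member CYP71B20), with rule changes of -0.57 in WT, -0.10 in ire1b and 0.28 in ire1a1b. AT1G78860 (92.1% identical to the lectin gene AT1G78850) had -1.32 in WT and -0.85 in ire1a1b and so did not meet the rule. Members that share sequence may share reads and are not independent.

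The WT threshold passed close to several genes. Just inside it were AT3G11780 (-0.60), BGLU15 (-0.602) and BGLU28 (-0.602), and just outside AT4G20830 (-0.599), AT5G44390 (-0.599) and XSP1 (-0.598). At the ire1a1b threshold AT1G23460 (-0.097), SCPL49 (-0.095) and LTP5 (-0.092) were inside, and AT4G15610 (-0.103), the laccase gene IRX12 (-0.105) and AT1G05575 (-0.106) outside. Only 30 of the 113 members were kept in each of the 12 applications of the rule that left out 1 WT or ire1a1b library. Their number was 112 to 195, with 181 without the first WT DMSO library and 195 without the first WT TM library.

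Genes that met the WT threshold and were also lower in ire1a1b give a second background in ire1b. Of these 584 genes 67.5% were called lower in ire1b, with a median log2 change of -0.96. Of the 73 genes lowered in ire1a1b with a WT change above -0.1, 72.6% were called lower in ire1b, with a median of -0.82. For the members the values were 20.4% and -0.24, and for all genes meeting the CPM minimum 11.1% and 0.02. These sets were cut by WT and ire1a1b values, and the difference between them in ire1b was not tested.

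Tissue markers moved with TM in every genotype, and none of the listed markers is a member or was at 0 throughout. Of 6 root hair markers 5 fell in WT, 6 in ire1b and 6 in ire1a1b. Their summed level in WT was 47 to 57.6 CPM in DMSO and 23.4 to 30.2 with TM. In ire1b it was 55.3 to 61.5 CPM and 20.9 to 22.9, and in ire1a1b 52.6 to 60.8 and 19.6 to 25.2. Of 8 root endodermis markers 5 fell in each genotype. Their sum in WT was 48 to 52.6 CPM in DMSO and 25.6 to 35 with TM. The sum was 42.9 to 50.2 CPM and 14.6 to 23.5 in ire1b, and 50.2 to 52.8 and 15.2 to 22.4 in ire1a1b. Both root lists were thus low with TM also in ire1a1b, where the members by rule were not. Of 4 xylem markers 2 fell in WT, 1 in ire1b and none in ire1a1b, with sums of 154 to 183 CPM and 109.9 to 134 in WT and 159 to 184 and 139.5 to 179 in ire1a1b. Of 3 root cap markers none was called in WT, 2 fell in ire1b and 1 in ire1a1b. None of the 19 photosynthesis, 3 phloem, 3 guard cell or 4 dividing cell markers was called. The part of the xylem markers in the members' levels was not tested.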

How the data were processed

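PolyA RNA of 18 seedling libraries was sequenced. Per the submitters' processing notes, reads were aligned with STAR 2.4.0 to TAIR10 and counted with HTSeq 0.6.0, and the authors deposited raw counts per gene. DESeq2 was named there without a version. How reads were assigned, with or without strand, and by which annotation was not given in the sources used here. Counts of overlapping or near-identical genes are therefore uncertain. HTSeq summary entries (for example 6.14% in the first WT DMSO library) were left out of totals and CPM. Replicate numbers come from the sample titles, since a replicate tag in the labels conflicted with them.

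Of 27416 identifiers 26719 matched a RefSeq locus of TAIR10.1, whose coordinates, names and sequence were used. Genes kept by filterByExpr (20615) were scaled by TMM and fitted with edgeR 4.0.16 (R 4.3.3, robust quasi-likelihood, 1 mean per group over 18 libraries), Benjamini-Hochberg adjusted over all of them, and called at adjusted p below 0.05. The fit was also run on simulated counts with the same dispersion for all genes and no replicate effect. That run does not cover the replicate differences of these libraries. Residuals of same-numbered libraries correlated at 0.25, 0.15 and 0.32 in ire1b (0.50 to 0.69 in WT, 0.42 to 0.72 in ire1a1b), all above 0.1. The numbers therefore pair the samples, and the main fit did not use this pairing. The replicate block shares its shifts between the genotypes. On the second principal component, however, replicate 1 stood apart in WT and ire1a1b only. The block within each genotype does not share them. The blocked value is given for the total counts and for some of the genes whose call it changes. Counts by annotation group and by location come from the fit without a block, and some would change with it. CYP706A2 and AT4G33420, for example, passed only with a replicate block (edgeR adjusted p = 0.02 and 0.00089).

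The members, the lists and the tests were chosen with earlier results of these data known. Genes named are the 15 members with the lowest WT change, the 8 with the highest CPM, the 8 lowest and highest of those called in ire1b, those nearest the thresholds and 5 IRE1 pathway genes; others are named as examples after their values were seen. Alternatives were RLE scaling, DESeq2 1.42.0, other filters, ire1b libraries alone, replicate blocks, each library left out and other settings of the rule.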

Additional observations from a re-analysis of the deposited data

Results flagged for a closer look

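In 5 members the TM libraries labelled ire1b lay above all their DMSO libraries while the WT TM libraries lay below theirs. How often this occurs among all tested genes was not counted. The peroxidase gene AT4G36430 had a log2 change of 1.80 in ire1b, the arabinogalactan protein gene AGP18 one of 0.97 and the chitinase-like gene CTL2 one of 0.59, and these 3 were called. The germin-like gene GLP10 (0.27) and the aspartyl protease gene AT1G03230 (0.20) did not pass in ire1b. The WT direction was fixed by the choice of members, and the difference between the ire1b and WT responses was not tested. AT4G36430 and AGP18 passed in ire1b under each of the 13 alternatives, and CTL2 in all but the one without the third ire1b TM library.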

How the results depend on the processing

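Membership depended on the rule's settings. The count of 113 became 172 with group medians (91 shared), 75 with a pseudocount of 5, 194 and 72 with WT thresholds of -0.5 and -0.7, and 112 to 195 with 1 library left out. It was 120 with TMM-scaled CPM (91 shared). Members that fell in ire1b numbered 23 with TMM and with RLE scaling, 25 with DESeq2, 22 without a filter and 42 with the ire1b libraries alone, and 14 to 22 with 1 ire1b library left out. With a replicate block the count was 35 (all 23 shared), and with a block within each genotype 45 (22 shared), where all genes called went from 4639 to 7861. Over the 13 alternatives, members that rose numbered 2 to 4 and the median log2 change was -0.29 to -0.18. Of the listed ER stress genes, 14 to 16 were called higher.

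Over the 44 named genes and 13 alternatives, 518 values kept direction and call, 21 gained and 21 lost the call, and 12 changed sign, none of them called. The ranges over the fits that left out 1 ire1b library were -0.05 to 0.21 (PRXCA), -0.22 to 0.07 (XTH18), -0.22 to 0.10 (DIR5), -0.33 to 0.02 (AT5G35735), -0.17 to 0.00 (TCH4), -0.06 to 0.01 (AT3G11780), -0.13 to 0.28 (BGLU28) and -0.15 to 0.02 (IRE1B). The other sign changes, in XTH18 (0.01), DIR5 (0.00 and 0.03) and BGLU28 (-0.04), lay within these ranges. The causes were not tested. At 16.35 M counts or more per library, depth limits chiefly the members near 5 CPM.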
